A study of Mus musculus with 2 samples.

Results

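Among R1 mouse embryonic stem cells grown in LB medium, 102 cells carried RNA of Pou3f1, Fgf5 or both, genes known as marks of formative pluripotency, with little or no RNA of 4 mesoderm genes. They were chosen by raw counts of unique molecular identifiers (UMIs, each standing for 1 captured RNA molecule) in the kept LB cells, those with at least 1000 detected genes and at most 10% of UMIs from mitochondrial genes. A cell was a member when Fgf5 and Pou3f1 together had at least 3 UMIs and T, Mesp1, Hand1 and Foxf1 together had at most 1. The members made up 102 of 1783 kept LB cells (5.72%, exact Clopper-Pearson 95% interval 4.69 to 6.90), out of 4488 kept cells in the series. The other 1681 kept LB cells were the comparison.

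The series holds 2 droplet single-cell libraries, 1 for each culture condition, from R1 cells kept in N2B27 medium for 72 hours. LB cells received LIF and BMP4 on gelatin. LBPXRS cells received the same cytokines with PD0325901, Xav939, Resorcyclic lactone and SB431542, on fibronectin. All members come from 1 library, so no value below has a replicate check, no test was made, and intervals cover counting error only.

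Formative pluripotency is the state that epiblast cells pass through around implantation, between the naive state of the preimplantation embryo and the primed state that answers to germ layer signals. Cells leaving the naive state are known to lose Klf2, Klf4, Esrrb, Tfcp2l1, Tbx3 and Zfp42, to keep Pou5f1 and Sox2, and to gain Fgf5, Pou3f1, Otx2 and the de novo DNA methyltransferases. LIF is known to sustain the naive network, and BMP4 is known to induce the Id genes in these cells and mesoderm genes in epiblast cells.

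The stretches upstream of 3 genes are shown because the members were set apart by them outside the rule. Dnmt3b and Pim2 had the highest ratios of all named genes outside it when 1 was added to each scaled level. With 0.1 added, Tmem54 was above both, at a log2 ratio of 2.62 against 2.53 and 2.49. Zfp42 is a standard reporter gene of the naive state. Sequences are the upstream part of the 250 bases before each RefSeq start in GRCm38.p6, 5′ to 3′ on the gene's strand. Dnmt3b lies at chr2:153649199-153649448, plus strand, Pim2 at chrX:7878056-7878261, plus strand, and Zfp42 at chr8:43307010-43307259, minus strand. All 3 stretches lie outside the GENCODE gene models, and the Pim2 stretch was ended at the first base of its model. Capitals mark the octamer ATGCAAAT, the site that POU factors such as Pou5f1 and Pou3f1 are known to bind, or its reverse complement ATTTGCAT.
Dnmt3b: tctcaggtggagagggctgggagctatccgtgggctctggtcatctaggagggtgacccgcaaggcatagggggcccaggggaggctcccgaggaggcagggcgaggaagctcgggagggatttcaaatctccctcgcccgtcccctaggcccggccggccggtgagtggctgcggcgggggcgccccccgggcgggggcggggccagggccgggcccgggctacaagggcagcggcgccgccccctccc
Pim2: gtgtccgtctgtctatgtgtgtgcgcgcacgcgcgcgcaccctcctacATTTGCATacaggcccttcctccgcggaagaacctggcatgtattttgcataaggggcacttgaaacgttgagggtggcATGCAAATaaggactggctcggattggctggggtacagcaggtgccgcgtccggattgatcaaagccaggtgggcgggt
Zfp42: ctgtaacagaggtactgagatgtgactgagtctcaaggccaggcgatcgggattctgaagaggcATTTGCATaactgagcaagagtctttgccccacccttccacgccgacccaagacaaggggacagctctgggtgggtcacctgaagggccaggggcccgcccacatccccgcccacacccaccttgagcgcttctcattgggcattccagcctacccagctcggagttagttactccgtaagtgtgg
The octamer, searched on both strands, was present 2 times in the Pim2 window, beginning 202 and 123 bases before the start, and 1 time in the Zfp42 window, 186 bases before it. It was found in 526 of 32851 windows of 250 bases (1.60%). Among genes with a window, it was found in 2 of 122 that were at least 2-fold higher in the members and in 5 of 146 that were at least 2-fold lower. These letter matches are a description of the windows and show no binding.

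Members were deeper than the other LB cells. Their median was 29926 UMIs (range 8736 to 58819) and 5159.5 genes per cell, against 25147 UMIs and 4476 genes in the others. Thinned to 10000 UMIs, the medians were 2885 genes over 101 members and 2733 over 1565 other cells, with 1 member and 116 others too shallow to enter. Mitochondrial shares had medians of 2.75% and 2.72%. A doublet caller marked 2 members and 16 other cells. None of the 225 LB barcodes removed by the filters met both sums, and none of the 10 barcodes that the libraries share was a member's.

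No cell in LBPXRS met the rule. The count was 0 of 2705 kept cells. A floor of 3 counts puts the share at no more than 0.111%, and the exact 95% interval at no more than 0.136%, at a median depth of 19058 UMIs against 29926 in the members. Fgf5, a secreted FGF ligand, had 1 UMI in all of LBPXRS. Pou3f1, a POU-domain transcription factor, had 131 UMIs there, and the highest sum of both genes in a cell was 2. Medium and substrate differ together between the libraries, so their parts cannot be told apart.

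The values that chose the members follow as a description. The sum of Fgf5 and Pou3f1 had a median of 5 UMIs per member and ran from 3 to 17. Most of it was Pou3f1, with 519 UMIs against 96 of Fgf5. Pou3f1 alone was found in 58 members, both genes in 41 and Fgf5 alone in 3. Summed over cells and scaled to a total of 1000000 (counts per 1000000, CPM), Pou3f1 was at 169 in members (95% Poisson interval 154 to 184) and 16.5 in the other LB cells (15.3 to 17.8). The mesoderm sum was 0 in 80 members and 1 in 22. T, the primitive streak factor, had 17 UMIs over all members, Hand1 had 4, Mesp1 had 1 and Foxf1 had 0, whereas the highest sum of these genes in another LB cell was 102.

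**Figure D1:**
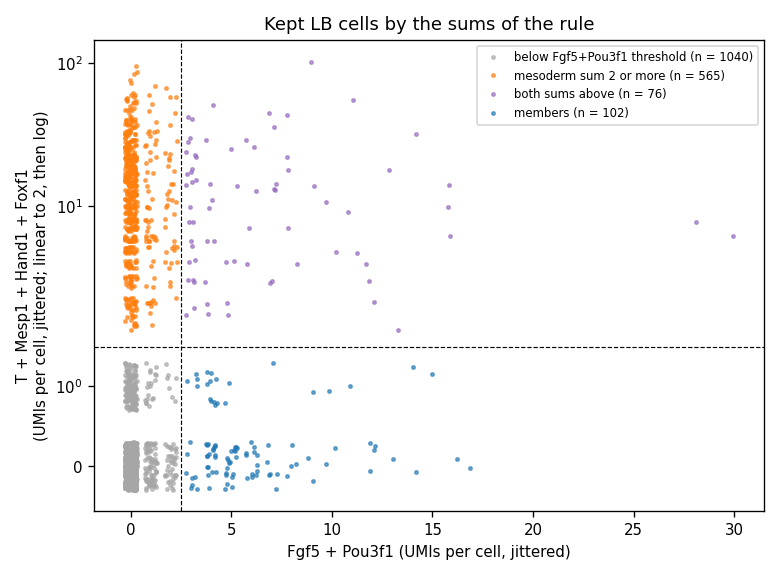
Each point is 1 of the 1783 kept LB cells, placed by its UMIs of Fgf5 and Pou3f1 (x axis, linear) and of T, Mesp1, Hand1 and Foxf1 (y axis, linear to 2 and then logarithmic), with jitter. Dashed lines are the thresholds; the 102 members fill the lower right, 76 cells above both thresholds lie over them, and most LB cells sit at an Fgf5 and Pou3f1 sum of 0.

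The label was checked on the markers that the rule left out. Dnmt3b, Pim2 and Nefl were all at least 2-fold higher in the members than in the other LB cells. Dnmt3b, a de novo DNA methyltransferase, was at 505 CPM in members (480 to 530) and 87.5 CPM in the others (84.7 to 90.4), a log2 ratio of 2.51. Pim2, a serine/threonine kinase, was at 324 CPM (304 to 344) against 57.7 CPM (55.4 to 60.0), a log2 ratio of 2.47. Nefl, the neurofilament light chain, was at 74.4 CPM (65.1 to 84.7) against 25.7 CPM (24.2 to 27.2), or 2.90 times as much. These markers come from the same cells that the rule sorted, so they describe the members and are no independent test of the name.

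In single cells the groups overlapped. Dnmt3b ran from 0 through a median of 13 to 56 UMIs in members and from 0 through 1 to 36 in other LB cells. For Pim2 the lowest, median and highest values were 0, 9 and 30 UMIs in members and 0, 0 and 32 in the others. The medians stood apart while the ranges covered each other. After thinning to 10000 UMIs, Dnmt3b, Pim2 and Nefl were all found in 34 of 101 members (33.7%), 2 of them in 51, 1 in 14 and none in 2. Of the other LB cells, 83 of 1565 (5.30%) had all 3.

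Over all genes with at least 10 CPM in members or other LB cells, 166 of 7519 (2.21%) were at least 2-fold higher in members and 202 (2.69%) at least 2-fold lower, leaving out the 6 genes of the rule. Higher genes were 45.1% of those past this size. With TMM scaling, which assumes that most genes keep their level, the counts were 102 and 259 (28.3% higher). Plain totals put the median gene at a log2 ratio of 0.10 and TMM at -0.04. Because the rule keeps mesoderm-rich cells out of the members, the counts were also made against the 1040 other cells with a mesoderm sum of at most 1. They were then 408 higher and 266 lower (60.5% higher).

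The 10 genes with the highest ratios, among those with at least 20 CPM in either group, were Dnmt3b, Pim2, Tmem54, Sema6a, Ramp3, Enc1, Gng3, Zic5, Ccn2 and Wipf3. Tmem54, a membrane protein gene, was at 34.8 CPM in members (28.5 to 42.0) and 5.56 CPM in other LB cells (4.88 to 6.32), a log2 ratio of 2.45. Sema6a, a transmembrane semaphorin, was at 42.2 against 9.95 CPM. Gng3, a G protein gamma subunit, was at 106 against 29.2 CPM, and Ramp3, which pairs with the calcitonin receptor-like receptor, at 36.4 against 8.54 CPM. Zic5, a zinc finger factor of the epiblast and neural plate, was at 40.3 against 10.8 CPM. Ccn2, a matricellular protein and known YAP target, was at 43.5 against 11.9 CPM, with 55.6 CPM in the cells above both thresholds. Its log2 ratio of 1.78 was 0.44 where members were chosen by at least 2 UMIs of Fgf5 alone. As a rule, here and below, Fgf5 alone or Pou3f1 alone means at least 2 UMIs of that gene, whatever the count of the other. The mesoderm limit was kept. No single member held more than 6.54% of the members' UMIs of any of these 10 genes, the share reached by Tmem54.

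The 10 genes with the lowest ratios were Tbx3, Sprr2a3, Khdc3, Cdx2, Klf4, Jam2, Pmp22, Gm46332, Tcl1 and Lgals3. Tbx3, a T-box factor of the naive network, had 1 UMI in all 102 members (0.325 CPM) and 24.5 CPM in other LB cells, a ratio of 0.0133 with a counting interval of 0.000336 to 0.0742. Khdc3, a maternal-effect gene also active in naive cells, had 1 UMI as well, against 20.6 CPM (ratio 0.0158, 0.0004 to 0.0883). Klf4, a Krüppel-like factor downstream of LIF, was at 2.27 CPM (0.914 to 4.68) against 40.7 CPM (38.8 to 42.7), a log2 ratio of -3.67. Jam2, a junctional adhesion molecule, was at 5.52 against 65.4 CPM, and Tcl1, an AKT coactivator of naive cells, at 3.25 against 37.3 CPM.

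Some of these low genes belong to the cells that the rule sent away. Cdx2, a caudal-type homeobox factor of trophoblast and posterior mesoderm, was at 2.60 CPM in members, 112 CPM in the 565 cells with a mesoderm sum of at least 2 and few Fgf5 and Pou3f1 UMIs, and 9.04 CPM in the 1040 cells low for both sums. Pmp22, a membrane glycoprotein gene, stood at 2.92, 77.5 and 9.86 CPM in the same order. Sprr2a3, a small proline-rich protein gene whose near-identical copies make its counts uncertain, had 2 UMIs in members, 74.5 CPM in the mesoderm-sum cells and 0.815 CPM in the low-sum cells. Klf4, Jam2 and Tcl1 had the opposite order: the low-sum cells held 60.7, 104 and 59.4 CPM, and the mesoderm-sum cells 9.59, 5.65 and 3.58 CPM.

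**Figure D2:**
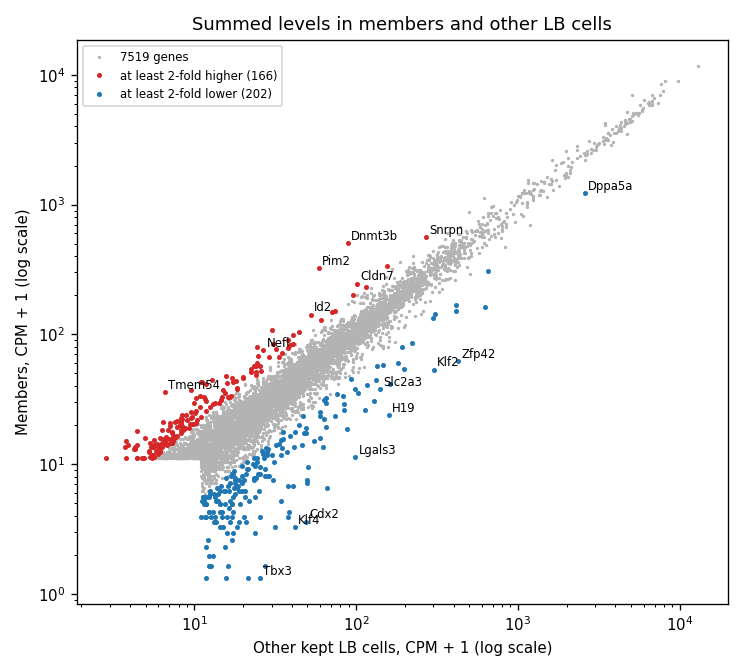
CPM + 1 in the 102 members (y axis) against the 1681 other LB cells (x axis), both on log scales; each point is 1 of 7519 genes. The 166 genes at least 2-fold higher are red and the 202 at least 2-fold lower are blue, with Dnmt3b and Pim2 far above the diagonal and Tbx3, Klf4 and Cdx2 far below it.

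Naive pluripotency genes were low as a group against the pooled other LB cells. All 20 listed genes summed to 1635 CPM in members (1590 to 1681), below the 6108 CPM of the low-sum cells but above the 919 CPM of the cells above both thresholds and the 874 CPM of the mesoderm-sum cells. Of 18 with enough UMIs, 0 were at least 2-fold higher, 15 at least 2-fold lower and 3 neither, with a median log2 ratio of -1.86 against 0.10 over all genes tested. Zfp42 was at 61.1 CPM in members (52.6 to 70.4) and 426 CPM in other LB cells (420 to 432). Klf2, a Krüppel-like factor that holds the naive state, was at 52.6 against 301 CPM. The orphan nuclear receptor Esrrb was at 2.92 against 24.5 CPM, and Tfcp2l1, a LIF-responsive factor, at 4.55 against 22.8 CPM. Dppa3, which protects against DNA methylation, was at 43.5 against 132 CPM, and Dppa5a, an RNA-binding protein gene of pluripotent cells, at 1225 against 2596 CPM, a log2 ratio of -1.08 that was -0.85 with Pou3f1 alone as the rule.

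The 3 naive genes that were not past 2-fold were Nanog, Klf5 and Stat3. Nanog, a homeobox factor, was at 45.1 CPM in members (38.0 to 53.3) and 77.4 CPM in the others (74.8 to 80.1), a log2 ratio of -0.76. Klf5 had a log2 ratio of -0.42. Stat3, which carries the LIF signal, had a log2 ratio of 0.21, at 37.7 CPM (31.1 to 45.2) against 32.5 CPM (30.8 to 34.3).

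Few naive genes were found in any 1 member. At 10000 UMIs per cell, of Klf2, Klf4, Esrrb, Tfcp2l1, Tbx3 and Zfp42, 37 members had none, 43 had 1, 21 had 2 and 0 had 3 or more. Of the 1565 other LB cells, 293 had 3 of these genes, 206 had 4, 82 had 5 and 14 had all 6. The mesoderm-sum cells and those above both thresholds were closer to the members: none of the genes was found in 265 of 547 (48.4%) and 37 of 76 (48.7%), and 1 in 201 and 33. In the mesoderm-sum cells 18 had 3, 3 had 4 and 2 had 5. Zfp42 was found in 50.5% of members (40.4 to 60.6) and Klf2 in 27.7% (19.3 to 37.5). In the mesoderm-sum cells, most of which had few naive genes, the shares were 23.8% and 20.8%, at a median depth before thinning of 24149 UMIs against 29926. Without thinning, Zfp42 was found in 66.7% of members and 37.7% of those cells, and Klf2 in 43.1% and 30.6%. Klf4 was found in 1.98% of members and 6.76% of those cells (4.90% and 15.6% without thinning). That share was below the one in the mesoderm-sum cells, and background from free RNA was not measured.

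Core pluripotency genes were not low as a group. All 10 summed to 3044 CPM in members (2983 to 3107), close to the 2894 CPM of the low-sum cells (2874 to 2915). The sums were 2025 CPM in the cells above both thresholds and 1448 CPM in the mesoderm-sum cells. Of 10, 1 was at least 2-fold higher, 0 lower and 9 neither, with a median log2 ratio of 0.51. The higher one, Cdh1, had a log2 ratio of 1.09, and of 0.95 with TMM scaling, which left none past 2-fold. Pou5f1, the central POU factor, was at 981 CPM in members (946 to 1017) and 700 CPM in other LB cells (692 to 708). It was found in 100% of thinned members and 91.1% of the others (100% and 93.9% without thinning). Sox2, its partner, was at 78.3 CPM (68.7 to 88.8) against 126 CPM (123 to 129), a log2 ratio of -0.68. The coactivator Utf1 was at 467 against 322 CPM, with 484 CPM in the low-sum cells, and the adhesion gene Epcam at 270 against 170 CPM. Sox2 stood at 195 CPM in the low-sum cells and 19.2 CPM in the mesoderm-sum cells, so members lay between.

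Formative and primed genes were high in part. Of 23 tested, 11 were at least 2-fold higher, 1 was lower and 11 were neither, with a median log2 ratio of 1.00. Besides Dnmt3b, Pim2, Nefl and Zic5, the higher ones were Sall2 (log2 ratio 1.61), Fgf15 (1.48), Dnmt3a (1.45), Sfrp2 (1.44), Zic2 (1.28), Tcf7l1 (1.17) and Foxd3 (1.12). Tcf7l1, a repressor of WNT targets that drives exit from the naive state, was at 56.2 CPM in members (48.1 to 65.2) and 24.4 CPM in the others (22.9 to 25.9). Otx2, a homeobox factor of early formative cells, was just short of 2-fold, at 70.2 CPM (61.1 to 80.2) against 35.5 CPM (33.7 to 37.3). The bHLH factor Tcf15 was at 107 against 53.2 CPM. Cdh2, N-cadherin, was the gene lower in the members, at 2.92 against 11.6 CPM. Against the low-sum cells alone, Foxd3 (0.54), Tcf7l1 (0.98) and Cdh2 (-0.34) had log2 ratios short of 2-fold, as did Zic2 (0.75) with the rule on thinned cells. That rule asked for an Fgf5 and Pou3f1 sum of at least 2 in place of 3 and kept the mesoderm limit of 1.

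Among DNA methylation genes, both de novo enzymes were higher and 7 of 9 were neither, with a median log2 ratio of 0.28. Dnmt3a was at 66.6 CPM in members (57.8 to 76.4) and 23.7 CPM in other LB cells (22.3 to 25.2). Dnmt3l, their catalytically inactive cofactor, was at 19.2 CPM (14.6 to 24.7) against 31.1 CPM (29.5 to 32.8), and 1 member held 30.5% of its UMIs. The maintenance enzyme Dnmt1 was at 57.8 against 47.3 CPM. Tet1, which oxidises methylcytosine, was at 48.4 against 69.6 CPM, and Zfp57, which guards imprints, at 26.6 against 46.0 CPM.

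Adhesion genes went both ways. Of 11, 4 were at least 2-fold higher, 4 lower and 3 neither (median log2 ratio 0.66). Cdh1 and Crb3 were short of 2-fold with TMM scaling, at log2 ratios of 0.95 each. With Fgf5 alone as the rule, Cldn6 was short of it too, at 0.63, and the adhesion list median was 0.012. Against the low-sum cells alone, Cdh2 (-0.34) and Fn1 (-0.97) were no longer 2-fold lower. E-cadherin, Cdh1, was at 129 CPM in members (116 to 142) and 60.1 CPM in other LB cells (57.7 to 62.4). The tight junction genes Cldn7 and Cldn6 were at 246 against 101 CPM and at 103 against 43.6 CPM, and the polarity gene Crb3 at 81.2 against 37.9 CPM. Vimentin, Vim, was at 40.3 CPM (33.5 to 48.0) against 160 CPM (156 to 164), and fibronectin, Fn1, at 57.2 against 145 CPM. The lower set also held Cdh2 and the epithelial claudin Cldn4 (log2 ratio -1.13). Vim was at 85.2 CPM in the low-sum cells and 295 CPM in the mesoderm-sum cells, so members were below both.

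Among FGF ligands, receptors and binding proteins, Fgf15 and Fgfbp3 were higher and 5 of 7 were neither; Fgfbp3 was just short of 2-fold (0.95) with Fgf5 alone as the rule, and Fgf15 (0.998) with the rule on thinned cells. Fgf4, the FGF ligand of naive cells, was at 30.2 CPM in members (24.4 to 37.0) and 40.2 CPM in other LB cells (38.3 to 42.2). Fgf8, a ligand of the primitive streak, was at 78.9 against 116 CPM, between 23.7 CPM in the low-sum cells and 282 CPM in the mesoderm-sum cells. Its log2 ratio of -0.55 was 1.69 against the low-sum cells alone. None of 11 ERK targets, 7 WNT targets or 10 NODAL targets was past 2-fold in either direction. Their median log2 ratios were 0.21, 0.19 and 0.18, the last of which was -0.08 with TMM scaling. The summed ERK list was at 336 CPM in members (316 to 357), 242 CPM in the low-sum cells (236 to 248) and 328 CPM in the mesoderm-sum cells. In the same order, the WNT list was at 278, 175 and 324 CPM and the NODAL list at 932, 899 and 668 CPM. Dusp6, an ERK phosphatase and feedback target, was at 22.4 against 17.7 CPM, and Nodal at 28.6 against 17.8 CPM.

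BMP targets did not move together. Of 11, 1 was higher, 2 were lower and 8 were neither, with a median log2 ratio of -0.25. Against the low-sum cells alone that median was 0.79, and all 15 listed genes summed to 920 CPM in members (886 to 954), 443 CPM in the low-sum cells (435 to 451) and 1094 CPM in the mesoderm-sum cells (1077 to 1111). The Id genes, HLH inhibitors of differentiation factors, were on the high side. Id2 was at 141 CPM in members (128 to 155) and 51.4 CPM in other LB cells (49.2 to 53.6), a log2 ratio of 1.44. Id1 was at 317 against 165 CPM and Id3 at 203 against 143 CPM, with log2 ratios of 0.94 and 0.50. Where members were chosen by at least 2 UMIs of Fgf5 alone, those ratios were -0.96 and -0.64, and Id2 was short of 2-fold at 0.41. Bmp4 itself had 20 UMIs over all members (3.97 to 10.0 CPM) against 48.8 CPM in the others (46.7 to 51.0), and Msx2 was also lower, though its log2 ratio of -1.59 was 0.23 against the low-sum cells alone. Of 10 LIF targets, 2 were lower, Klf4 and Tfcp2l1, and 8 were neither (median log2 ratio -0.67, and -1.44 to -0.57 in other settings). All 11 listed LIF genes summed to 248 CPM in members (231 to 266), 445 CPM in the low-sum cells and 308 CPM in the mesoderm-sum cells.

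**Figure D3:**
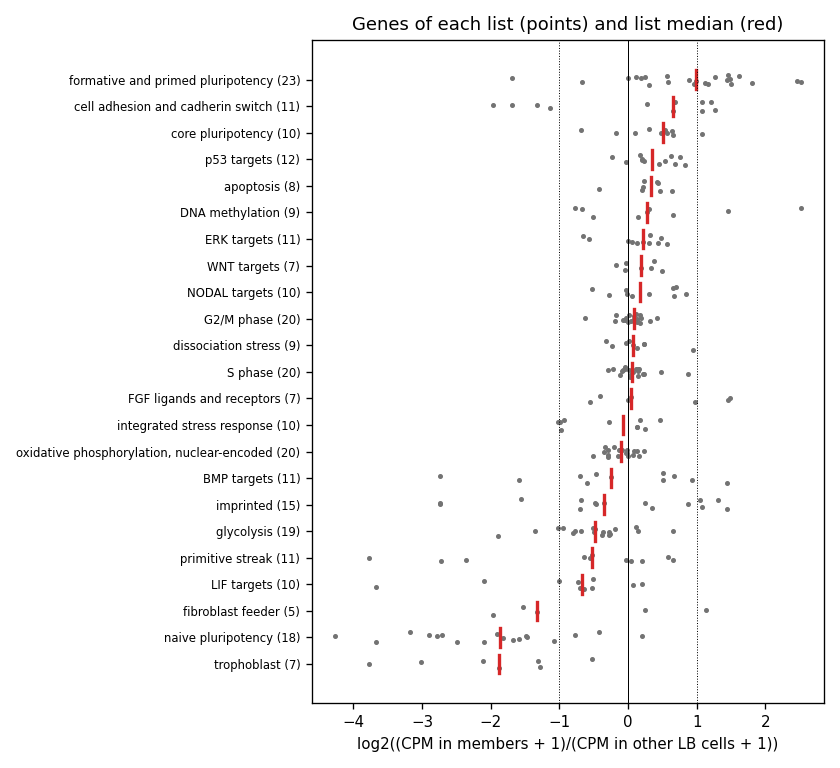
Log2 ratio of CPM + 1 in members against other LB cells (x axis) for the genes of each list with 5 or more tested genes (y axis, number tested in brackets); grey points are genes, red bars list medians, dotted lines mark 2-fold. The naive and trophoblast medians lie lowest, at -1.86 and -1.88, and the formative median highest, at 1.00.

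Several glycolysis genes were low. Of 19, 0 were at least 2-fold higher, 3 lower and 16 neither, with a median log2 ratio of -0.48, and 16 had a ratio below 0. Slc2a3, the glucose transporter GLUT3, was at 36.7 CPM in members (30.2 to 44.1) and 139 CPM in other LB cells (135 to 142). It was at 117 CPM in the low-sum cells and 172 CPM in the mesoderm-sum cells, above the members in both. Lactate dehydrogenase B, Ldhb, was at 85.4 against 220 CPM, and the platelet-type phosphofructokinase Pfkp at 22.4 against 46.3 CPM, a log2 ratio of -1.01 that was -0.91 under stricter cell filters. Ldha, the other lactate dehydrogenase, was at 1052 against 970 CPM, a log2 ratio of 0.12 that was -0.02 with TMM scaling, and the lactate exporter Slc16a3 at 202 against 128 CPM. None of 20 nuclear genes of oxidative phosphorylation was past 2-fold (median log2 ratio -0.10).

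Imprinted genes went both ways, with 4 of 15 at least 2-fold higher, 3 lower and 8 neither. The imprinted list median was -0.36, and 0.64 against the low-sum cells alone. The higher ones were Nnat, Mirg, Rian and Snrpn, of which Rian (0.95) and Snrpn (0.92) had log2 ratios short of 2-fold with TMM scaling, and Nnat (0.93) with Fgf5 alone as the rule. Rian and Mirg lie with Meg3 in 1 cluster of maternally expressed noncoding RNAs. Meg3 was at 1127 CPM in members (1090 to 1165) and 613 CPM in other LB cells (606 to 621), Rian at 200 against 94.2 CPM and Mirg at 41.9 against 16.2 CPM. All 20 listed genes summed to 2418 CPM in members, 2620 CPM in the cells above both thresholds, 2381 CPM in the mesoderm-sum cells and 1341 CPM in the low-sum cells. Snrpn, paternally expressed and transcribed with the overlapping Snurf, was at 557 against 268 CPM. H19, Igf2 and Peg3 were lower. H19 was at 22.7 CPM in members and 158 CPM in the others, but at 39.8 CPM in the low-sum cells and 340 CPM in the mesoderm-sum cells. Against the low-sum cells alone, H19 and Peg3 were short of 2-fold, at log2 ratios of -0.78 and -0.25.

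Cycle and stress lists showed no gene past 2-fold in most cases. The counts were 0 of 20 for S phase, 0 of 20 for G2/M phase, 0 of 12 for p53 targets, 0 of 9 for dissociation stress and 0 of 8 for apoptosis. Ratios were above 0 for 10 of the 12 p53 targets and 7 of the 8 apoptosis genes. Their median log2 ratios were 0.35 and 0.33 (0.22 and 0.20 with TMM scaling), against 0.10 over all genes tested. The p53 list summed to 2061 CPM in members (2010 to 2112), 1617 CPM in the low-sum cells, 1616 CPM above both thresholds and 1610 CPM in the mesoderm-sum cells. Ccne1, cyclin E1, was the highest of the S phase list at 206 CPM in members and 111 CPM in the others (log2 ratio 0.88). Of 10 genes of the integrated stress response, 1 was lower, Nupr1, with a log2 ratio of -1.02 that was -0.51 with Fgf5 alone as the rule.

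Markers of other cell types did not all lie to 1 side. Of 11 primitive streak genes, 0 were higher and 3 lower (Cdx2, Mixl1 and Lhx1). Eomes, a streak T-box factor, was at 18.8 CPM in members (14.3 to 24.4) and 12.3 CPM in other LB cells (11.3 to 13.4), a log2 ratio of 0.58 that became -0.16 when members were chosen by Pou3f1 alone. Of 7 trophoblast genes, 6 were lower, among them the keratin Krt18 at 78.3 against 192 CPM. That contrast turned on which cells were the comparison, as Krt18 was at 40.9 CPM in the low-sum cells and 837 CPM in the 76 cells above both thresholds. Against the low-sum cells alone, the trophoblast list median was 0.23 in place of -1.88 and the primitive streak list median 1.13 in place of -0.53. In that comparison Krt8 (0.31), Krt18 (0.92) and Krt19 (0.15) had log2 ratios above 0, and Lhx1, at -0.56, was short of 2-fold. The neural list had 2 tested genes: Nes, an intermediate filament of neural and epiblast cells, was at 46.4 against 14.7 CPM, and Tubb3 at 14.9 against 17.8 CPM. All 12 neural genes summed to 67.6 CPM in members (58.7 to 77.4) and 37.6 CPM in the low-sum cells.

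The summed levels of the marker lists, rule genes left out, were 0.974 CPM for mesoderm in members against 5.45 CPM in other LB cells, 3.90 against 12.5 CPM for primitive endoderm, and 22.7 against 65.0 CPM for trophoblast. They were 135 against 177 CPM for the primitive streak, 16.9 against 18.9 CPM for neural cells and 14.3 against 14.1 CPM for fibroblasts. Below 10 CPM in both groups were 5 of 5 primitive endoderm, 4 of 5 trophoblast and 3 of 5 mesoderm markers. The other cells include the mesoderm-sum cells. Against the low-sum cells, the longer lists summed to 276 against 220 CPM for the primitive streak and 260 against 199 CPM for trophoblast. The sums were 169 against 163 CPM for primitive endoderm and 48.1 against 53.3 CPM for later mesoderm. At 0 UMIs in the members were 1 of 5 mesoderm markers (Foxf1, a gene of the rule), 1 of 5 primitive endoderm markers (Sox17), 1 of 5 neural markers (Sox1), 2 of 5 fibroblast markers (Col1a2 and Col3a1) and 4 of 5 markers of the 2-cell embryo (Zscan4c, Zscan4d, Zfp352 and Tcstv3). Their part in the results was not tested. Some traces sat in single cells: the member with the most UMIs of a gene held 62.5% of the members' Cdx2, 59.0% of their Tagln and 53.6% of their Tfap2a.

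The rule's thresholds cut the LB cells into 4 classes, with the members beside 1040 cells low for both sums, 565 with a mesoderm sum of at least 2 only and 76 above both thresholds. Dnmt3b was at 505 CPM in members, 94.2 CPM in the low-sum class, 152 CPM in the class above both thresholds and 62.8 CPM in the mesoderm-sum class. Pim2 was shared more evenly by the Fgf5 and Pou3f1 cells: 324 CPM in members and 219 CPM above both thresholds, against 41.5 and 56.7 CPM. Zfp42 and Klf2 were at 667 and 464 CPM in the low-sum class, and at 61.1 and 52.6 CPM in members, 43.5 and 27.8 CPM above both thresholds, and 52.9 and 52.7 CPM in the mesoderm-sum class. Otx2 was highest in members, at 70.2 CPM against 48.1, 25.1 and 14.2 CPM. The cells above both thresholds were deepest, with a median of 32335.5 UMIs.

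**Figure D4:**
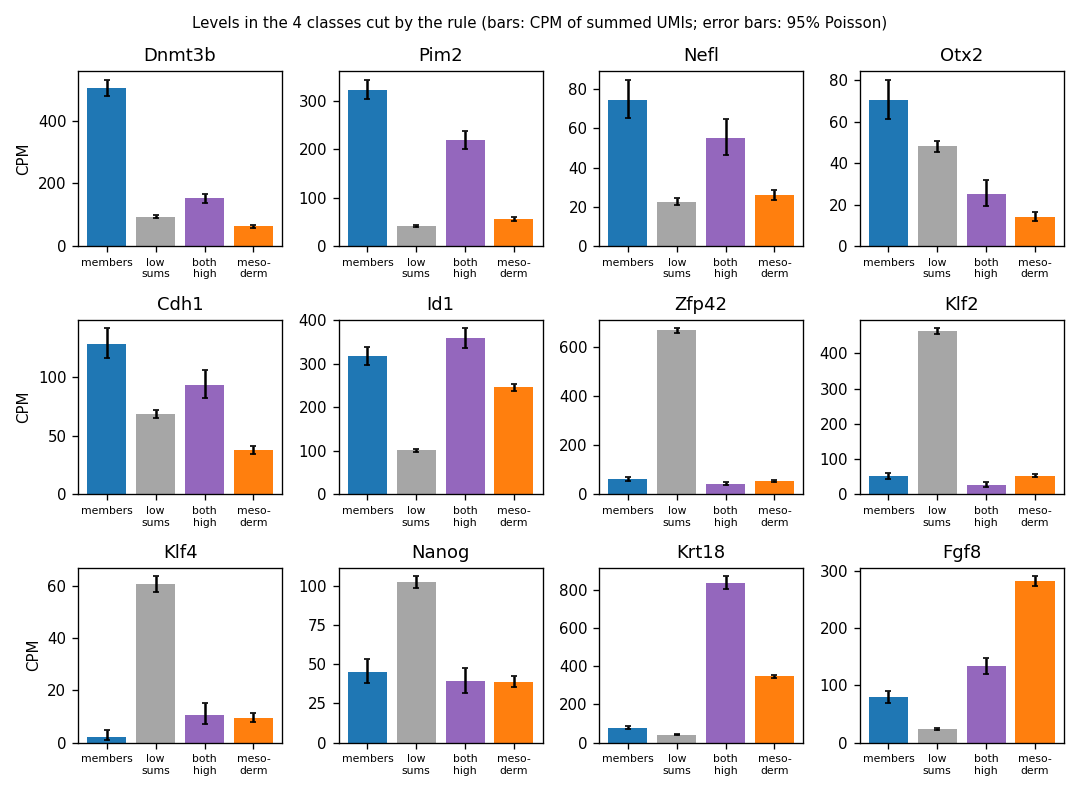
CPM of summed UMIs (y axes, each from 0) in the 4 classes cut by the rule: members (n = 102), cells low for both sums (n = 1040), cells above both thresholds (n = 76) and mesoderm-sum cells (n = 565), for 12 genes; error bars are 95% Poisson intervals. Dnmt3b, Nefl, Otx2 and Cdh1 are highest in members, Zfp42, Klf2, Klf4 and Nanog in the low-sum cells, Id1 and Krt18 in the cells above both thresholds, and Fgf8 in the mesoderm-sum cells.

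Levels across the threshold of 3 UMIs changed by degrees. Among cells with a mesoderm sum of at most 1, Dnmt3b was at 65.9 CPM in the 899 cells with no Fgf5 or Pou3f1 UMI, 183 CPM at a sum of 1 (95 cells) and 411 CPM at a sum of 2 (46 cells). In members it was at 367 CPM at a sum of 3 (12 cells), 451 CPM at 4 to 5 (50 cells), 625 CPM at 6 to 9 (26 cells) and 572 CPM at 10 or more (14 cells). Cells just outside the threshold thus had as much Dnmt3b as those just inside. Pim2 was at 299 CPM at a sum of 2, 364 CPM at 3 and 262 CPM at 10 or more. Zfp42 was at 716 CPM at a sum of 0, 187 CPM at 2, 89.0 CPM at 3 and 59.5 CPM at 10 or more. Median depth was 25087 UMIs at a sum of 0, 26276.5 at 2, 30317.5 at 3, 29313.5 at 4 to 5, 30087 at 6 to 9 and 34108 at 10 or more. A raw sum may thus also read depth, which was not tested. On the mesoderm side, the 22 members with a sum of 1 had 415 CPM of Dnmt3b, and the 8 cells just past it, with a sum of 2, had 198 CPM.

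**Figure D5:**
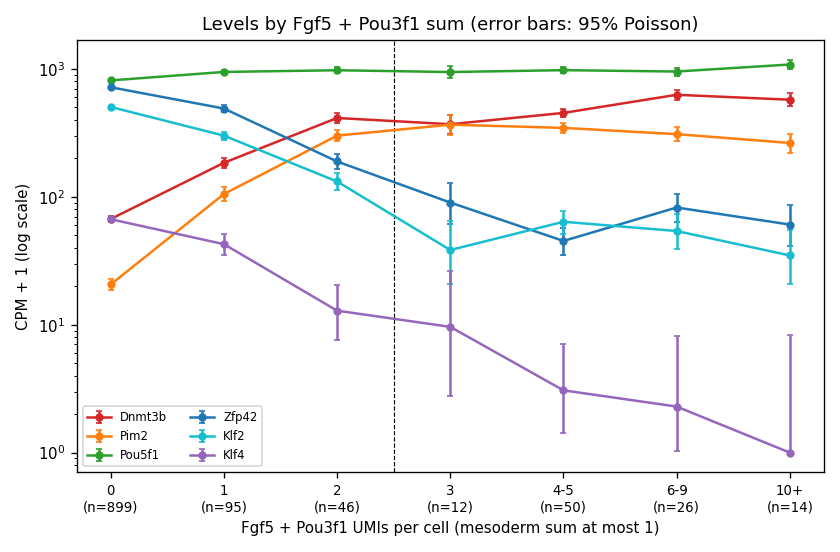
CPM + 1 (y axis, log scale) of 6 genes against the Fgf5 and Pou3f1 sum per cell (x axis, cells with a mesoderm sum of at most 1); error bars are 95% Poisson intervals and the dashed line marks the threshold. Dnmt3b and Pim2 climb and Zfp42, Klf2 and Klf4 drop before the threshold is reached, while Pou5f1 stays between 809 and 1078 CPM.

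Members differed among themselves by whether Fgf5 was found. The 58 with Pou3f1 alone and the 41 with both genes had median depths of 29926 and 29841 UMIs. Id1 was at 455 CPM in those with Pou3f1 alone (424 to 488) and 144 CPM in those with both (124 to 167). Id2 was at 180 against 91.4 CPM and Id3 at 270 against 119 CPM. The AP-1 factor Jund was at 450 against 249 CPM, the keratin Krt8 at 76.4 against 21.6 CPM and Ccn2 at 55.7 against 29.7 CPM. In the other direction, Dnmt3b was at 400 CPM with Pou3f1 alone (371 to 431) and 654 CPM with both (610 to 700). Nefl was at 39.6 against 118 CPM, and Pmepa1, a known TGF-beta family target, at 12.1 against 29.7 CPM. Fgf8 had 61 UMIs with Pou3f1 alone (26.8 to 45.0 CPM) and 166 with both (114 to 155 CPM). Pou5f1, at 986 and 978 CPM, and Zfp42, at 59.2 and 51.3 CPM, had overlapping intervals. This split was read after the values were seen, and absence of Fgf5 UMIs in a cell is not absence of its RNA.

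Single-cell values overlapped between these sets. At 10000 UMIs per cell, Id1 had a median of 2 UMIs (0 to 26) in 57 members with Pou3f1 alone and 0 UMIs (0 to 8) in the 41 with both, and was found in 75.4% and 34.1%. Dnmt3b had medians of 3 (0 to 12) and 6 UMIs (0 to 20).

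Clustering, which used the genes described here, placed most members together. Of 8 clusters of LB cells, 1 cluster of 275 cells held 90 of 102 members (88.2%), and members were 32.7% of it. At a finer resolution, 89 members lay in a cluster of 265 cells. The genes that lead the cluster were Pim2, Fgf5, Dnmt3b, Tmem54 and Pou3f1. Its other 185 cells failed the rule in different ways: 104 had only too few Fgf5 and Pou3f1 UMIs and 81 had a mesoderm sum of at least 2, while 72 had no UMI of Fgf5 or Pou3f1. They had 302 CPM of Dnmt3b (287 to 318) and 351 CPM of Pim2 (335 to 368), against 548 and 356 CPM in the 90 members beside them. Nefl was at 95.7 CPM in them (87.2 to 105) and 83.3 CPM in those members (72.7 to 94.9). Zfp42 was at 61.0 CPM in them and 52.8 CPM in those members. Meg3 was at 1058 CPM in them (1030 to 1088) and 1201 CPM in those members (1160 to 1243). T was at 121 CPM in them and 5.95 CPM in those members.

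The split by Fgf5 was also present inside this cluster. There, 50 members had Pou3f1 alone and 37 had both genes, with Id1 at 432 CPM (399 to 466) and 132 CPM (111 to 155).

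The 12 members outside the cluster carried fewer of the markers that the rule left out. They were spread out: 6 lay in a cluster of 622 cells with 870 CPM of Zfp42, 3 in one led by Cxcl10, 2 in one led by Prdm6 and Foxf1, and 1 in one led by Slc7a3. The values that follow pool all 12, so they need not occur together in any 1 cell. Summed, these members had 208 CPM of Dnmt3b (166 to 259), 100 CPM of Pim2 (71.4 to 137) and 12.9 CPM of Nefl (5 UMIs), with Pou3f1 at 226 CPM (182 to 279). Klf2 was at 129 CPM and H19 at 108 CPM, against 41.6 and 10.4 CPM in members inside the cluster. Krt18 was at 196 against 61.3 CPM and Id1 at 479 against 294 CPM. These cells had a median depth of 33033.5 UMIs.

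Choosing cells by 1 gene gave different sets. At least 2 UMIs of Fgf5 were found in 26 LB cells, 23 of them members, with 663 CPM of Dnmt3b, 417 CPM of Pim2, 90.5 CPM of Id1 and 58.2 CPM of Zfp42. At least 2 UMIs of Pou3f1, with the mesoderm limit kept in both cases, were found in 128 cells, 95 of them members, with 481, 295, 340 and 97.9 CPM of the same genes.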

How the data were processed

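The authors deposited 1 matrix of raw UMI counts per library, with the 32285 genes and the barcodes in separate files. They were made with Cell Ranger 4.0.0 on mm10, per the submitters' processing notes; the annotation and cell calling are not given in the sources used here. Kept cells had at least 1000 genes and at most 10% mitochondrial UMIs. Counts were summed over cells and scaled to CPM, and ratios are log2((CPM + 1)/(CPM + 1)), which understates the difference of low genes. Genes with at least 10 CPM in either group were compared, and the 2-fold size, with no test, decided what was counted.

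Named genes were the 10 highest and 10 lowest ratios at 20 CPM or more, outside the 6 rule genes, with the markers and the genes of 30 lists. The members and lists were chosen with earlier results of these data known. Shares of cells were taken after random thinning to 10000 UMIs a cell. Cells were clustered in scanpy 1.11.5 (2000 variable genes, 30 components, 15 neighbours, Leiden resolution 0.5), and doublets marked by Scrublet were kept. Poisson and Clopper-Pearson intervals are exact, at 95%. TMM factors came from edgeR 4.0.16. Identifiers of 7516 of 7519 tested genes were found in GENCODE M21. LBPXRS served only to apply the rule. Counting did not separate near-identical copies.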

Additional observations from a re-analysis of the deposited data

How the results depend on the processing

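The members are cells of 1 library, chosen by raw counts in which deeper cells pass more easily, and no culture replicate limits any value. The members' summed depth of 3078714 UMIs puts the minimum of 10 CPM at 31 UMIs. No paired analysis was possible because each condition has 1 library. The 166 genes at least 2-fold higher became 102 with TMM scaling, 34 at a minimum of 50 CPM, 297 where members were chosen by Fgf5 alone (at least 2 UMIs) and 408 against other cells with a mesoderm sum of at most 1. The 202 lower genes became 310 at a minimum of 5 CPM, 43 at 50 CPM and 352 with Fgf5 alone. The members' share of 5.72% became 8.30% with a sum of at least 2, 3.42% with at least 5, 4.49% with a mesoderm sum of 0, 1.46% with Fgf5 alone and 7.18% with Pou3f1 alone. Of 75 named or listed genes past 2-fold, 59 to 75 stayed past it in each setting. The log2 ratio of Dnmt3b ran from 2.38 to 2.63 and that of Pim2 from 2.18 to 2.93; the naive list median ran from -2.54 to -1.37 and the formative and primed list median from 0.86 to 1.31. Of 13 list medians of at least 0.5 in size, 4 turned sign, in 3 settings, and genes past 2-fold turned in 2 of these. On cells thinned to 10000 UMIs, the rule asked for a sum of at least 2 in place of 3 and kept the mesoderm limit of 1. Thresholds and depth thus changed together. Krt19 was then at 0.61, Krt18 at 0.33, the definitive endoderm list median at 0.31 and the trophoblast list median at 0.042. With Fgf5 alone, the primitive streak list median was 0.26, the definitive endoderm one 1.01 and the neural one -0.099. Against other cells with a mesoderm sum of at most 1, Msx2 was at 0.23, Krt19 at 0.15, Krt8 at 0.31, Krt18 at 0.92, Acta2 at 0.46, the primitive streak list median at 1.13 and the trophoblast one at 0.23. In that setting the BMP target list median, -0.25 with all other cells, was 0.79 and the imprinted one, -0.36, was 0.64. Of 17 list medians under 0.5 in size, 12 turned sign in at least 1 of 13 settings. With TMM scaling the FGF list median was -0.078, NODAL -0.078, dissociation stress -0.052, S phase -0.067 and G2/M phase -0.042. At a minimum of 50 CPM the FGF list median was -0.55 and the BMP one 0.59. The FGF median, 0.049 in the main setting, reached 1.11 at its highest. The integrated stress response median of -0.072 reached 0.26 among cells in a middle range of depth. The p53 median of 0.35 was -0.053 with Fgf5 alone. The cause was not tested, except that the comparison with cells of a mesoderm sum of at most 1 leaves the mesoderm-sum cells out by construction. Leaving out the top member of each gene, chosen after seeing the data, gave 122 higher and 253 lower genes.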

Other observations

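Genes of germ cells and of the 2-cell embryo were mostly too low to compare in the members. Of 4 germ cell genes tested, Sycp3, a synaptonemal complex protein gene, was at least 2-fold higher, at 48.1 CPM in members (40.6 to 56.5) and 23.1 CPM in other LB cells (21.7 to 24.6), and 3 were neither. With TMM scaling Sycp3 was short of 2-fold, at a log2 ratio of 0.90. Of the 2-cell embryo list, 12 of 14 genes in the gene table had 0 UMIs in members, and the 1 gene tested, Ddit4l, an mTOR inhibitor gene, was at 56.2 CPM (48.1 to 65.2) against 22.2 CPM (20.8 to 23.7), a log2 ratio of 1.30 that was 0.33 with Fgf5 alone as the rule. Of 5 fibroblast genes tested, Thy1, a surface glycoprotein gene, was higher, at 11.7 against 4.79 CPM, and Vim, Fn1 and Acta2 were lower. Against the low-sum cells alone, Thy1 (0.73) and Fn1 (-0.97) had log2 ratios short of 2-fold, and Acta2 turned from -1.53 to 0.46. Of 3 primitive endoderm genes tested, none was past 2-fold; Sparc, a matrix protein gene, was at 114 against 165 CPM, a log2 ratio of -0.53 that was 0.085 against the low-sum cells alone. Of 2 definitive endoderm genes, Trh, a neuropeptide precursor gene, was at 380 against 319 CPM, and Krt19 was lower, with a log2 ratio of -2.11 that turned to 0.61 with the rule on thinned cells and to 0.15 against the low-sum cells alone. Of 3 later mesoderm genes tested, Bmp4 and Msx2 were lower, and Msx2 turned to 0.23 against the low-sum cells alone. Neither of 2 Y-linked genes was past 2-fold. The median log2 ratio by chromosome ran from 0.017 on chromosome X to 0.16 on chromosome 19.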
